A study of Mus musculus with 4 samples.

Results

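The 35 genes described here fold secretory proteins in the endoplasmic reticulum (ER), remove those that fail to fold, or signal ER stress. They were looked up by symbol among the 32285 features of the deposited matrices, where all 35 were found. They were read as 15 chaperones and folding enzymes, 7 genes of ER-associated degradation (ERAD), 5 genes of the stress sensors and their factor Xbp1, and 8 ATF4-type genes. Cells came from crypts of the mouse small intestine, pits in which stem and Paneth cells sit, and were made into droplet-based 3′ single-cell RNA libraries. The series design names epithelium of mice before and after sleep deprivation. Libraries 2D-1 and 2D-2 of the group 2D are set against libraries 0D-1 and 0D-2 of the group 0D. The labels do not spell out D, and they give no strain, age, genotype or agent for either group. Nothing in them ties a library to an animal of its own, so p-values here measure only the spread between 2 libraries a group, which may be technical.

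Proteins that a cell secretes or places in its membranes are folded in the ER by chaperones and joined by disulfide isomerases, and misfolded ones are passed back to the cytosol for degradation. When unfolded protein builds up, 3 kinds of ER sensor start the unfolded protein response: IRE1 (genes Ern1 and Ern2) splices the mRNA of Xbp1, ATF6 is cut into a transcription factor, and PERK (Eif2ak3) slows translation and raises ATF4. XBP1 and ATF6 act mainly on chaperone and ERAD genes, and ATF4 acts mainly on genes of amino acid supply, redox balance and cell fate. In the gut this machinery is known above all from goblet cells, which secrete mucin, and Paneth cells, which secrete antimicrobial peptides.

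Promoters were read for 30 of the 35 genes from RefSeq (build GRCm38.p6), as 300 bases from 250 before to 50 after each gene's start. Those of Atf6, Ern2, Hyou1, Manf and Derl1 were not available. They are shown because the gene groups differ in how often the elements ERSE and CARE occur, though many promoters hold neither. The ER stress element ERSE, to which ATF6 and XBP1 are known to bind, was searched on both strands as CCAAT and CCACG with any 9 bases between them. The element CARE, bound by ATF4 with C/EBP factors, was searched as TGATGNAA. ERSE stood in 7 of 13 chaperone promoters, 2 of 6 ERAD promoters, 0 of 3 sensor promoters and 0 of 8 ATF4-type promoters, against 0.130% of 27025 promoters of the same length. CARE stood in 4 of 8 ATF4-type promoters (Asns, Chac1, Nupr1 and Trib3), in that of Herpud1 and in no chaperone promoter, against 4.06% of all promoters. The shorter ERSE-II, ATTGG and CCACG with any 1 base between them, stood in the promoters of Herpud1 and Dnajb11, against 0.0370% of all. The core TGACGTGG of the unfolded protein response element stood in none of the 30, against 0.607% of all. The 17 matches in member promoters did not overlap each other. A match is a description of the letters and not a binding site shown by these data. The promoters of 5 genes that the results below turn on follow, 5′ to 3′ on the gene's strand, with matches to ERSE, ERSE-II or CARE in capitals. They lie at chr2:34771840-34772139 (plus strand), chr10:86705395-86705694 (minus strand), chr19:6046326-6046625 (plus strand), chr8:94386179-94386478 (plus strand) and chr7:126625421-126625720 (minus strand).
Hspa5: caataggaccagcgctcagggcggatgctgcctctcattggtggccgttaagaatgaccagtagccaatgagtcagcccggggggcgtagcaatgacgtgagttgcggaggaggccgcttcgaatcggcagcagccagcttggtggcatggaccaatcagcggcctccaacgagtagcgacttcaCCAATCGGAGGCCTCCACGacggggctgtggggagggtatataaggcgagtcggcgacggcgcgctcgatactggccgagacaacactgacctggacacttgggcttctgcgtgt
Hsp90b1: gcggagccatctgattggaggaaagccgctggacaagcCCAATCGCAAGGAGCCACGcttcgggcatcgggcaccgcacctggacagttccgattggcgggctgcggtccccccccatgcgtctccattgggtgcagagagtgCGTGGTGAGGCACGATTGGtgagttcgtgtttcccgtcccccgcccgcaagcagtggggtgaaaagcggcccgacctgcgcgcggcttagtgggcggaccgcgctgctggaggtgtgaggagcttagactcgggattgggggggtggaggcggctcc
Syvn1: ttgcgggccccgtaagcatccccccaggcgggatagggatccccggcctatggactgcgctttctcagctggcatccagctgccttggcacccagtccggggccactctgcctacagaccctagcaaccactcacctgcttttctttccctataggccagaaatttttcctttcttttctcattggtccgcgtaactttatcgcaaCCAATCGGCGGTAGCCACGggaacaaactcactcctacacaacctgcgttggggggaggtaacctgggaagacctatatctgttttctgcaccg
Herpud1: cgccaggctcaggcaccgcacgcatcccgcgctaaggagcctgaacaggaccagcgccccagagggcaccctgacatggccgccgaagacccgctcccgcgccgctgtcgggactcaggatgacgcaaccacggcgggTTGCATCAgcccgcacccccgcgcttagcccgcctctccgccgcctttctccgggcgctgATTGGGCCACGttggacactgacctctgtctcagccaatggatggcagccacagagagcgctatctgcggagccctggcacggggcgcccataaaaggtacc
Nupr1: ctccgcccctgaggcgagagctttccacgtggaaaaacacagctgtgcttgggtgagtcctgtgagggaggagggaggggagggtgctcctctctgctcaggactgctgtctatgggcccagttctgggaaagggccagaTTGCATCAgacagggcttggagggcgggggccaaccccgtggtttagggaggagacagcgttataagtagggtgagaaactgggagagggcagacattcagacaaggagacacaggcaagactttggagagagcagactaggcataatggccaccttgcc
The ERSE matches of the other 6 promoters that hold one, and the CARE matches of Asns, Chac1 and Trib3, are given in the motif's own reading direction, with the fixed letters in capitals.
Calr, chr8:84847075-84847093: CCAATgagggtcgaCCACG
Canx, chr11:50325800-50325818: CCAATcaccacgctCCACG
Creld2, chr15:88819520-88819538: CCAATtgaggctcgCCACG
Derl3, chr10:75893242-75893260: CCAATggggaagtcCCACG
Dnajc3, chr14:118937827-118937845: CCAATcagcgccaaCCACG
Pdia6, chr12:17266491-17266509: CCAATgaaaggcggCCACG
Asns, chr6:7693225-7693232: TGATGaAA
Chac1, chr2:119351049-119351056: TGATGcAA
Trib3, chr2:152344039-152344046: TGATGtAA

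Cells that passed the filters numbered 7025 and 7988 in 2D-1 and 2D-2, against 7586 and 7132 in 0D-1 and 0D-2, with medians of 11117 and 9248 UMIs in 2D-1 and 2D-2, against 12116 and 13340.5 in 0D-1 and 0D-2 (UMIs count captured transcript molecules). They fell into 25 clusters, formed without any of the 35 genes among the variable genes, and 7 epithelial classes were named from markers. Over all cells 3 of 9 stromal markers (Col1a2, Dcn and Lum) and 1 of 10 myeloid markers (S100a9) were at 0 UMIs, and the others were detected. A B and plasma-like cluster led by Igkc and Igha held 40 cells. A doublet caller worked in 3 of 4 libraries, so all cells were kept, and 13 to 16 cell barcodes were shared by any 2 libraries. Both 2D libraries stood apart, each in its own way. In 2D-1 the median interferon response gene lay 2.26 on the log2 scale above the 0D mean over all cells, against 0.09 in 2D-2. In 2D-2 the median cytosolic heat shock gene lay 0.97 above it, against -0.11 in 2D-1. A goblet-like cluster led by Ddx60 and Irf7 held 2099 of its 2456 cells from 2D-1, and an enterocyte-like cluster led by Ly6a and Isg15 held 1018 of 1082. In both classes the 2D-1 cells thus sat mostly in another cluster than those of the other libraries.

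Goblet-like cells held the highest levels of this machinery. On the scale of CPM, UMIs per 1000000 UMIs of a class in a library, the 15 chaperones and folding enzymes summed to 10897 ± 791 CPM in goblet-like cells (mean ± SD over the 4 libraries). The next classes were transit-amplifying-like cells with 6939.9 ± 1022 CPM, enterocyte-like cells with 5692 ± 581 and enteroendocrine-like cells with 5315 ± 604. Tuft-like cells held 4860.4 ± 449.6 CPM, stem-like cells 3834 ± 292 and Paneth-like cells 2863 ± 516. Goblet-like cells stood above every other class beyond the spread of the libraries, while enterocyte-like and enteroendocrine-like cells, and enteroendocrine-like and tuft-like cells, differed by less than that spread. The low place of Paneth-like cells is one on a share scale: 20 genes, led by defensins and Lyz1, took 70.2% to 72.7% of their UMIs, against 24.99% to 26.4% in goblet-like cells. Counted per cell instead, the chaperones gave 79.3 UMIs in Paneth-like, 104 in goblet-like, 126 in transit-amplifying-like and 48.3 in stem-like cells, values that carry the size of the cells and the depth of the libraries.

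Of the 35 genes, 28 had their highest class mean in goblet-like cells, among them 14 of 15 chaperones, 5 of 7 ERAD genes, 3 of 5 sensor genes and 6 of 8 ATF4-type genes. Hspa5, which encodes BiP, the main chaperone of the ER lumen, averaged 1939 ± 465 CPM in goblet-like, 735 ± 153 in enterocyte-like and 481 ± 128 in stem-like cells (SD, 4 libraries). Its goblet-like level was 3.74 to 4.33 times the stem-like level across libraries. Ern2, the IRE1 form known from mucous epithelia, averaged 228 ± 81.9 CPM in goblet-like cells, against 3.397 ± 0.776 in stem-like cells. Nupr1, a small stress-induced chromatin protein, averaged 528 ± 33.7 CPM in goblet-like, 428 ± 49.5 in Paneth-like and 8.56 ± 2.66 in stem-like cells. Ern2 was thus mainly a goblet-like transcript, and Nupr1 one of goblet-like and Paneth-like cells.

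The other 7 genes had another class on top. Canx, a membrane-bound lectin chaperone for glycoproteins, averaged 511 ± 35.3 CPM in enterocyte-like against 288 ± 14.9 in goblet-like cells. Derl3, a derlin of the ERAD channel, was highest in Paneth-like cells at 3.43 ± 0.869 CPM, and its relative Derl2 in transit-amplifying-like cells at 72.3 ± 7.34. The Derl3 peak, a pooled 10.3 CPM, lay in the Paneth-like cluster led by Rnase1 and Retnlb. At a coarser clustering Retnlb and Rnase1 were among the leading genes of a goblet-like cluster, so the class of this peak depends on the clustering. Enteroendocrine-like cells led for Atf6, Ern1, Ppp1r15a and Sesn3. Atf6 averaged 228 ± 34.1 CPM there and 46.002 ± 11.5 in goblet-like cells. Its level came from 1 cluster, led by the hormone-cell genes Chga and Tac1, with 486 and 409 CPM in 2D-1 and 2D-2, against 418 and 619 in 0D-1 and 0D-2. No other epithelial cluster passed a pooled 62.5 CPM of Atf6. Sesn3, a sestrin of the amino acid response, was high in enteroendocrine-like cells at 28.4 ± 1.98 CPM and in stem-like cells at 27.1 ± 6.904, against 9.65 ± 1.26 in goblet-like cells.

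**Figure D1:**
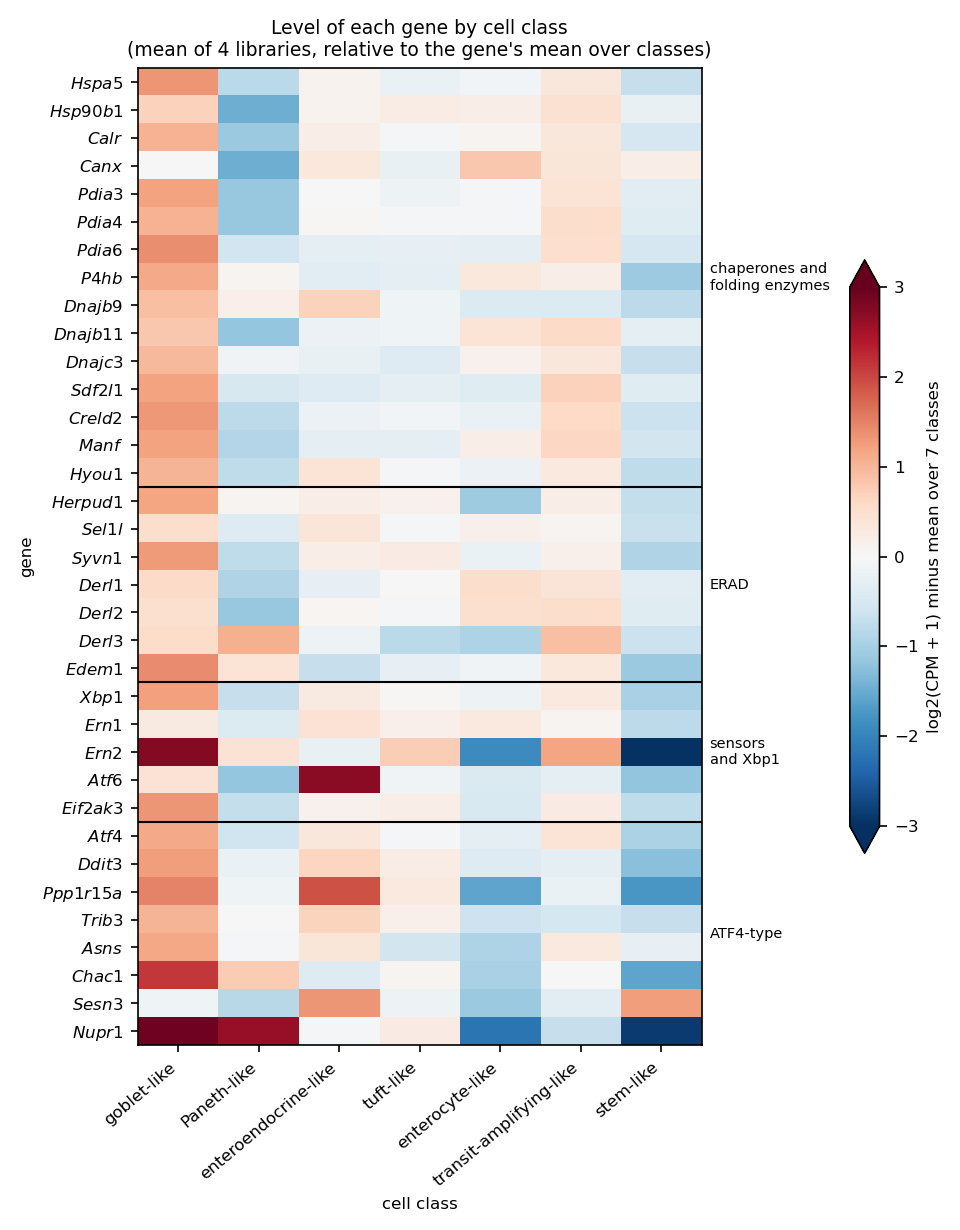
Level of each of the 35 genes (rows, in their 4 groups) in each of 7 cell classes (columns), as log2(CPM + 1) averaged over 4 libraries minus the gene's mean over classes; colours at the ends of the bar also cover values beyond it. Goblet-like cells lead in 28 rows, and Atf6 stands out in enteroendocrine-like cells.

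Levels also varied inside the classes. Among Paneth-like clusters, the one led by Rnase1 and Retnlb held a pooled 8760.4 CPM of the 15 chaperones, against 2386 and 1499 in the clusters led by defensins. Among transit-amplifying-like clusters, those led by Cdc20 and by Hist1h1b held 11267 and 9751 CPM, against 4694 in the largest one. Over the 24 epithelial clusters, 12 of 15 chaperones followed the sum of the other chaperones with a Spearman's rho of at least 0.89, among them Pdia3, a disulfide isomerase that works with the lectin chaperones (rho 0.98), Creld2 (0.97) and Hspa5 (0.95). Of the genes outside the chaperones, Xbp1 followed that sum most closely (rho 0.94), and Atf4 came next (rho 0.87). Canx (rho 0.17) and Sesn3 (rho 0.02) did not follow it. Clusters share libraries and totals, so these values describe the clusters and carry no test.

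**Figure D2:**
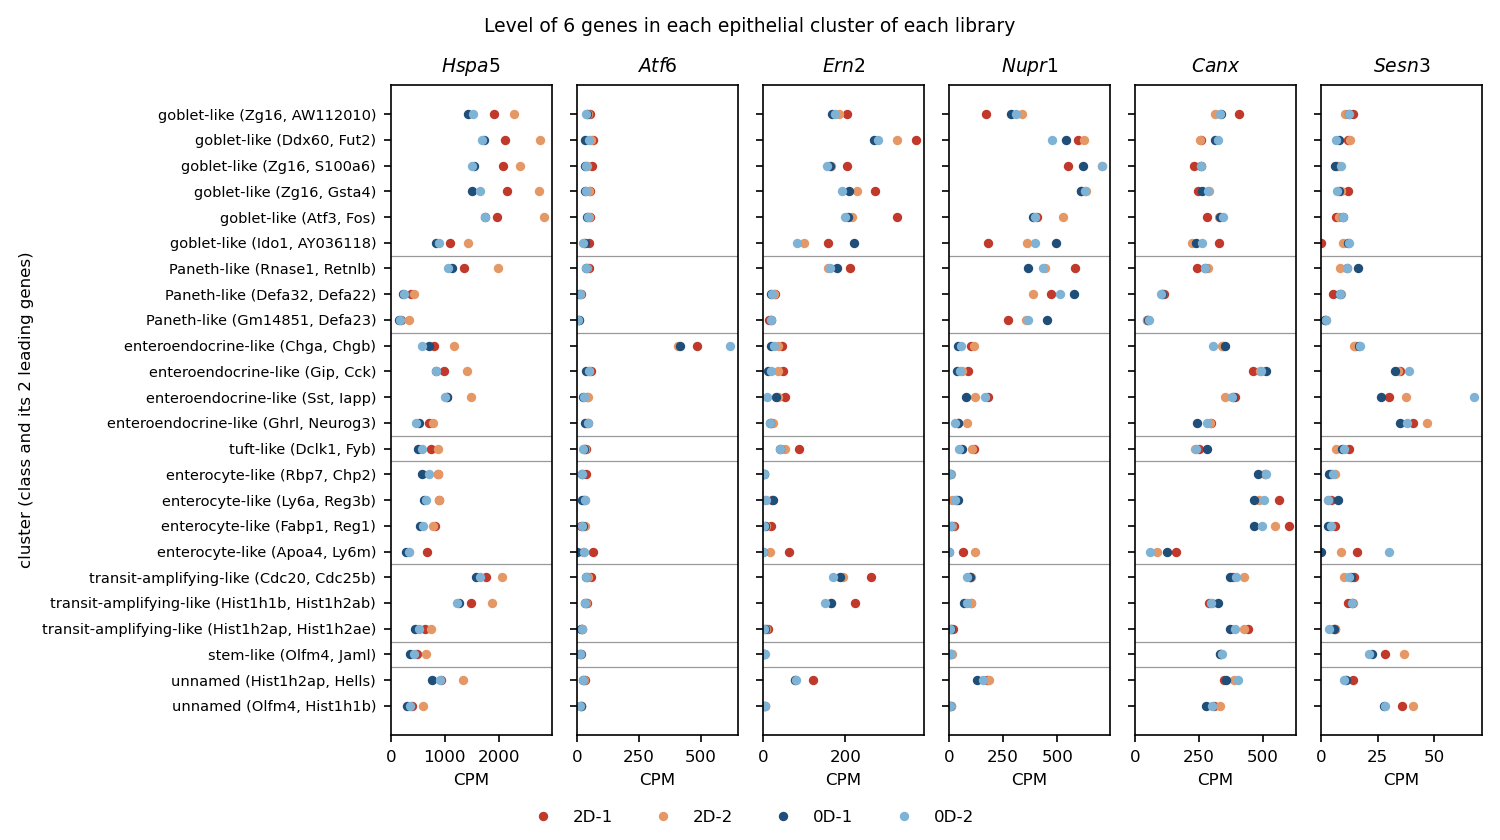
CPM of 6 genes in each of 24 epithelial clusters (rows, named by class and 2 leading genes), with 1 point for each library. Hspa5 of both 2D libraries lies right of both 0D libraries in the 22 clusters with at least 20 cells in every library, Atf6 is high in 1 enteroendocrine-like cluster, Ern2 and Nupr1 are high in goblet-like clusters, and Canx and Sesn3 follow another order.

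The comparison of 2D with 0D was made first over all cells of a library, with CPM whose totals were scaled by TMM (trimmed mean of M values). In such sums, fewer cells of a class and less RNA per cell cannot be told apart. Of the 35 genes, 33 lay higher in 2D, with a median log2 change of 0.36, against 50.8% of 15454 genes tested above 0. None of the 35 passed edgeR's quasi-likelihood test at an adjusted p of 0.05, and none of all genes did (0%). At an unadjusted p under 0.05 there were 11 of the 35, against 20.3% of all genes, and DESeq2 called 5, against 3.19%. Both 2D libraries lay above both 0D libraries for 18 of 35 (28.1% of all genes) and below them for 0 (27.5%). The ATF4-type genes had a median of 0.53 (8 of 8 above 0), the ERAD genes 0.49 (7 of 7), the sensor genes 0.31 (5 of 5) and the chaperones 0.26 (13 of 15).

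Among chaperones, Hspa5 had 923 and 1530.0 TMM-scaled CPM in 2D-1 and 2D-2, against 701 and 803 in 0D-1 and 0D-2 (log2 0.71 ± 0.26, adjusted p = 0.225, edgeR's quasi-likelihood test). Hyou1, which exchanges nucleotide on BiP, had 47.03 and 63.6 in 2D-1 and 2D-2, against 32.4 and 40.1 in 0D-1 and 0D-2 (log2 0.61 ± 0.18, adjusted p = 0.189, edgeR). Both 2D libraries lay above both 0D libraries for these 2 genes, with 2D-2 the higher. Hsp90b1, the HSP90 of the ER, had 972 and 1146 in 2D-1 and 2D-2, against 894 and 995 in 0D-1 and 0D-2 (log2 0.16 ± 0.13, adjusted p = 0.513, edgeR). Calr, a lectin chaperone of the lumen, had 1016 and 1243 in 2D-1 and 2D-2, against 939.5 and 1069 in 0D-1 and 0D-2 (log2 0.17 ± 0.15, adjusted p = 0.542, edgeR). Here 2D-1 lay between the 0D libraries. For both genes the groups overlapped, unlike those of Hspa5.

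Among ERAD genes, Syvn1, the ubiquitin ligase HRD1, had 27.2 and 31.9 TMM-scaled CPM in 2D-1 and 2D-2, against 16.2 and 16.7 in 0D-1 and 0D-2 (log2 0.85 ± 0.10, adjusted p = 0.151, edgeR's quasi-likelihood test). Edem1, a lectin that hands misfolded glycoproteins to ERAD, had 52.2 and 62.7 in 2D-1 and 2D-2, against 38.8 and 42.7 in 0D-1 and 0D-2 (log2 0.49 ± 0.12, adjusted p = 0.166, edgeR). The 2D libraries stood clear of the 0D libraries for both. Herpud1, a stress-induced scaffold of the same ligase complex, had 116 and 233 in 2D-1 and 2D-2, against 105 and 109.7 in 0D-1 and 0D-2 (log2 0.70 ± 0.32, adjusted p = 0.299, edgeR), a difference carried by 2D-2. Derl1 had 66.3 and 77.3 in 2D-1 and 2D-2, against 69.1 and 73.9 in 0D-1 and 0D-2 (log2 0.01 ± 0.11, adjusted p = 0.9799, edgeR), with the groups interleaved.

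Among sensor genes, Ern2 had 95.4 and 102 TMM-scaled CPM in 2D-1 and 2D-2, against 57.9 and 64.1 in 0D-1 and 0D-2 (log2 0.69 ± 0.09, adjusted p = 0.151, edgeR's quasi-likelihood test). Atf6 had 41.99 and 43.3 in 2D-1 and 2D-2, against 28.8 and 32.1 in 0D-1 and 0D-2 (log2 0.49 ± 0.09, adjusted p = 0.151, edgeR). Xbp1 had 157 and 206 in 2D-1 and 2D-2, against 139.8 and 153 in 0D-1 and 0D-2 (log2 0.31 ± 0.15, adjusted p = 0.317, edgeR). For Ern2 and Atf6 the 2 libraries of each group lay close together and apart from the other group, while for Xbp1 2D-1 lay just above 0D-2. Among ATF4-type genes, Atf4 had 171 and 205 in 2D-1 and 2D-2, against 141 and 151 in 0D-1 and 0D-2 (log2 0.37 ± 0.12, adjusted p = 0.1998, edgeR). Chac1, which breaks down glutathione, had 8.08 and 10.1 in 2D-1 and 2D-2, against 5.43 and 5.47 in 0D-1 and 0D-2 (log2 0.73 ± 0.14, adjusted p = 0.151, edgeR). Ddit3, the death-linked factor CHOP, had 22.4 and 45.02 in 2D-1 and 2D-2, against 18.8 and 18.1 in 0D-1 and 0D-2 (log2 0.87 ± 0.32, adjusted p = 0.231, edgeR). Both 2D libraries lay above both 0D libraries for these 3 genes, and for Ddit3 the distance was mostly that of 2D-2. Nupr1 had 219 and 343 in 2D-1 and 2D-2, against 182 and 198 in 0D-1 and 0D-2 (log2 0.56 ± 0.22, adjusted p = 0.249, edgeR).

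**Figure D3:**
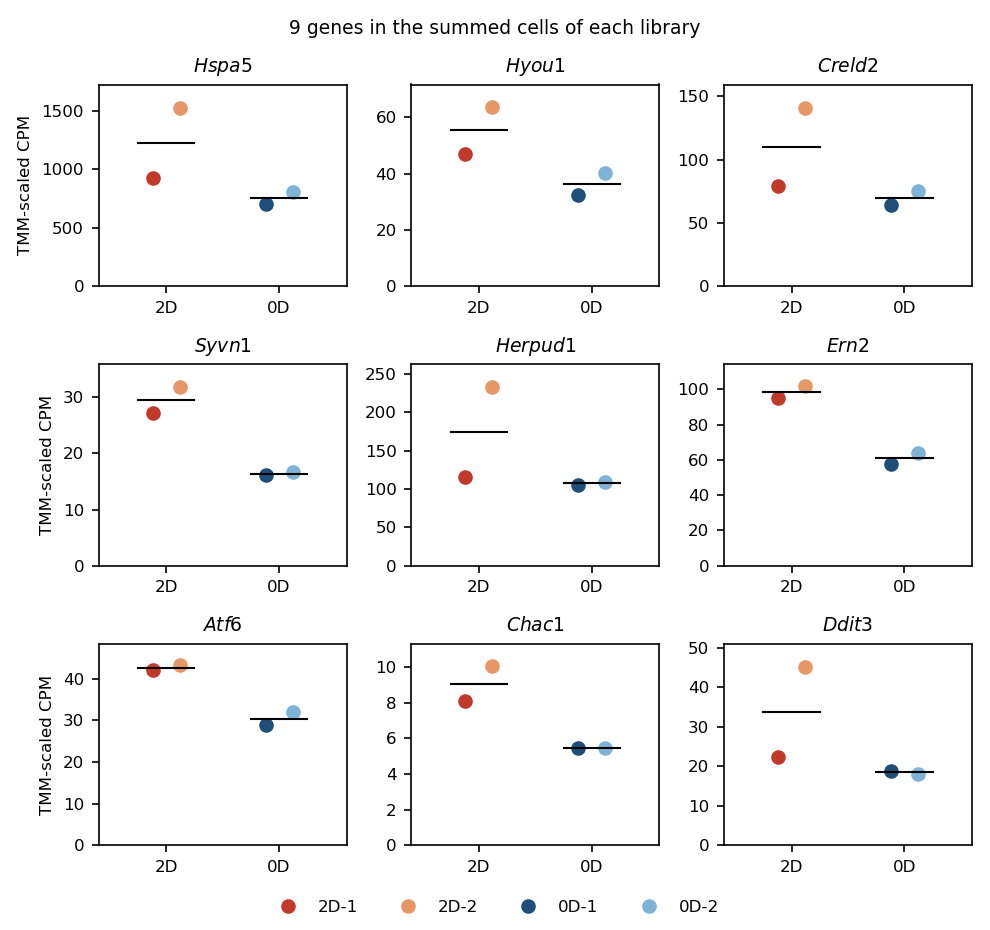
TMM-scaled CPM (y axis from 0) of 9 genes in the summed cells of each library; points are libraries and the bar is the group mean. The 2D libraries lie above the 0D libraries in every panel, by little in 2D-1 for Herpud1, Creld2 and Ddit3.

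Other values moved with these sums. Goblet-like cells, where most of the 35 genes are highest, made up 37.7% and 43.1% of the cells of the 7 named classes in 2D-1 and 2D-2, against 33.0% and 36.7% in 0D-1 and 0D-2. Unnamed cells, left out of these shares, numbered 357 and 408 in 2D-1 and 2D-2, against 926 and 688 in 0D-1 and 0D-2. Paneth-like cells made up 12.8% and 18.3% in 2D-1 and 2D-2, against 8.07% and 8.25% in 0D-1 and 0D-2. Stem-like cells made up 4.57% and 4.505% in 2D-1 and 2D-2, against 13.3% and 9.84% in 0D-1 and 0D-2. An unnamed dividing cluster led by Olfm4, which scored highest for stem markers, is not among them. It held 292 and 213 cells in 2D-1 and 2D-2, against 563 and 476 in 0D-1 and 0D-2. Enteroendocrine-like cells, where Atf6 is highest, made up 11.4% and 12.1% in 2D-1 and 2D-2, against 8.49% and 9.45% in 0D-1 and 0D-2. Of 15 enteroendocrine markers, 14 were higher in both 2D libraries over all cells. Summed goblet markers came to 33213 and 60618 CPM in 2D-1 and 2D-2, against 41369.5 and 48255 in 0D-1 and 0D-2. Summed Paneth markers, of which all 12 were higher in both 2D libraries, came to 148414 and 178454 CPM in 2D-1 and 2D-2, against 86702 and 85893 in 0D-1 and 0D-2. With every class brought to the same number of cells in each library, the median over the 35 genes was 0.11 and the log2 change was 0.62 for Syvn1, 0.45 for Hspa5, 0.18 for Atf6 and -0.12 for Nupr1, with no call. Without TMM scaling, which moves the median of all genes to -0.11, the median of the 35 was 0.22. Over all cells, leaving out 2D-1 gave a median of 0.60 with 26 of 35 called higher by edgeR's quasi-likelihood test (12.8% of all genes), and leaving out 2D-2 gave 0.11 with 7 called higher (6.28%) and Pdia6 lower. Called higher both ways were Atf6, Chac1, Ddit3, Edem1, Ern2, Sel1l and Syvn1. Without 2D-1 the log2 change was 1.12 for Herpud1 and 1.02 for Hspa5, and without 2D-2 it was 0.11 and 0.29. In each of those fits a lone 2D library is assumed to vary like the 0D libraries. Both fits use the same 0D libraries, and the share of all genes called both ways was not counted.

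Read inside the classes, more members lay above 0 than below in each class, from 21 of 35 in goblet-like cells to 34 of 34 in transit-amplifying-like cells, and 3 of them passed the test in a class. Above 0 were also 30 of 33 in enterocyte-like (51.3% of all genes), 31 of 34 in enteroendocrine-like (50.4%), 25 of 32 in tuft-like (49.6%), 29 of 35 in Paneth-like (50%) and 22 of 32 in stem-like cells (50.6%). In transit-amplifying-like cells all 34 genes tested lay above 0 (median 0.31, against 50% of all genes above 0), and both 2D libraries lay above both 0D libraries for 19 (22.5% of all genes) and below for 0 (22.7%). The chaperone-rich Cdc20 and Hist1h1b clusters held 188 and 236 of 805 cells in 2D-1 and 195 and 259 of 684 in 2D-2. They held 111 and 246 of 900 in 0D-1 and 132 and 263 of 805 in 0D-2. Paneth markers of the class summed to 5929 and 8314 CPM in 2D-1 and 2D-2, against 2815 and 4605 in 0D-1 and 0D-2. Goblet markers summed to 15916 and 30555 in 2D-1 and 2D-2, against 16749 and 21985 in 0D-1 and 0D-2. The part of these in the changes was not tested. In enterocyte-like cells the median was 0.28, with 21 of 33 above (23.1%) and 1 below (22.6%). In enteroendocrine-like cells it was 0.27, with 22 of 34 above (20.3%) and 0 below (19.4%). These 3 classes had the largest shares of members with both 2D libraries above. In tuft-like cells the median was 0.26, with 16 of 32 above (21.1%) and 1 below (20.5%). In Paneth-like cells it was 0.23, with 16 of 35 above (18%) and 3 below (18.9%). In stem-like cells it was 0.22, with 16 of 32 above (21.3%) and 4 below (22.3%). Goblet-like cells, with the highest levels, had a median of 0.02 with TMM scaling, and 0.15 without it, where the median of all genes is 0.14, and 10 of 35 above (23%) and 3 below (22.4%). The test called Herpud1 higher in stem-like cells (0.3% of all genes higher), Nupr1 and Ern2 in enteroendocrine-like cells (0.231%) and Nupr1 in tuft-like cells (0.222%). It called 0 members in the other 4 classes, where it also called 0% of all genes. In those 4, the unadjusted p was under 0.05 for 14 members in transit-amplifying-like (11.6% of all genes), 16 in enterocyte-like (13.1%), 11 in Paneth-like (6.35%) and 4 in goblet-like cells (7.34%). In the classes with calls it was so for 15 members in enteroendocrine-like (9.28%), 9 in tuft-like (9.34%) and 11 in stem-like cells (12.3%). By DESeq2 the 4 classes without calls gave 1, 4, 0 and 0 calls in the same order, against 0.362%, 0.558%, 0.0917% and 0.14% of all genes.

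**Figure D4:**
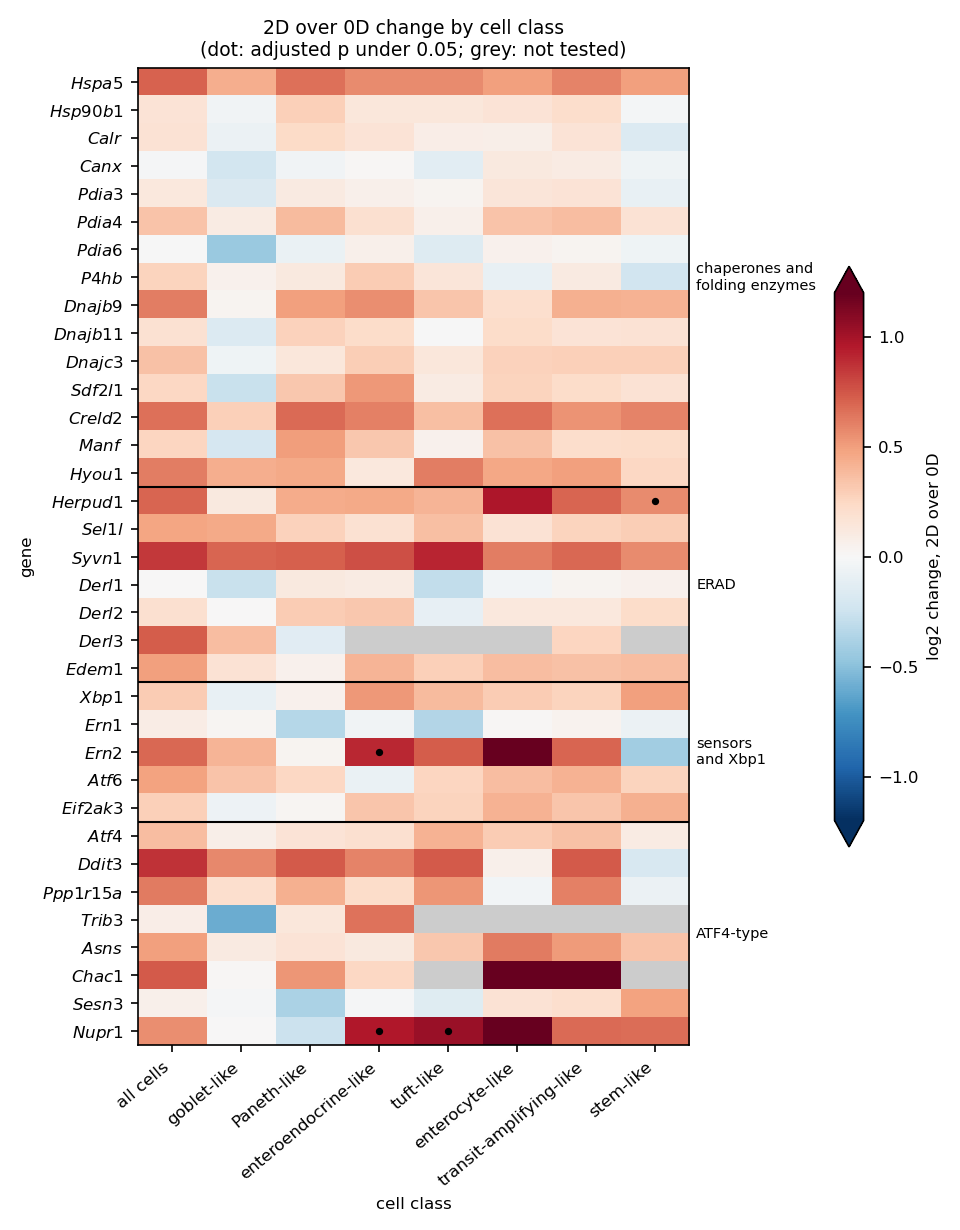
Log2 change of each gene (rows, in their 4 groups), 2D over 0D, in all cells and in each class (columns), with a dot where edgeR's adjusted p was under 0.05 and grey where a gene was not tested; the ends of the colour bar also cover larger changes. Hspa5, Sel1l and Syvn1 are among several genes above 0 in every column, such as Herpud1, Creld2 and Atf4. The goblet-like column, where 14 of 35 genes lie below 0, is the most mixed.

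Hspa5 and the ligase pair Syvn1 and Sel1l were the only members whose 2D libraries both lay above both 0D libraries in all 7 classes. The share of all genes that do so in all 7 classes was not counted, and the classes share the same 4 libraries. This and the counts of classes and clusters given for single genes below are thus descriptions only. Hspa5 had 472 and 652 TMM-scaled CPM in 2D libraries against 369.7 and 429 TMM-scaled CPM in 0D libraries in stem-like cells. It had 868 and 847 in 2D libraries against 574 and 648 in 0D libraries in enterocyte-like cells and 407 and 662 in 2D libraries against 312 and 365 in 0D libraries in Paneth-like cells. In goblet-like cells it had 1815 and 2643 in 2D libraries against 1623 and 1671 in 0D libraries. Both 2D libraries lay above both 0D libraries at each of these levels, and the log2 change lay between 0.44 in goblet-like and 0.66 in Paneth-like cells. Leaving out 2D-2 gave log2 0.13 in goblet-like and 0.27 in Paneth-like cells. Its adjusted p by edgeR's quasi-likelihood test was lowest in stem-like cells (0.1800) and enteroendocrine-like cells (0.233), so no class passed. Single clusters gave the same separation: both 2D libraries lay above both 0D libraries for Hspa5 in 22 of the 22 clusters with at least 20 cells in each library. The share of all genes above in every cluster was not counted. In the goblet-like cluster led by Ddx60, which holds most goblet-like cells of 2D-1, Hspa5 had 2120.2 and 2777 CPM in 2D-1 and 2D-2, against 1734 and 1686 in 0D-1 and 0D-2. In that led by Zg16 and S100a6 it had 2081 and 2396 CPM in 2D-1 and 2D-2, against 1540.3 and 1511 in 0D-1 and 0D-2. Some of these values rest on few cells: the Ddx60 cluster held 58 and 78 cells in 0D-1 and 0D-2. The Zg16 and S100a6 cluster held 30 cells in 2D-1. Over all members, 364 of 678 gene and cluster pairs (53.7%) had both 2D libraries above and 38 (5.61%) below. The clusters come from the same 4 libraries and are not separate tests.

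The other chaperones moved less evenly. Creld2, an ER-resident protein induced by stress, lay higher in both 2D libraries in 6 classes and in 17 of 21 clusters, with 46.8 and 58.5 TMM-scaled CPM in 2D libraries against 32.4 and 36.9 TMM-scaled CPM in 0D libraries in stem-like cells (log2 0.59 ± 0.13, adjusted p = 0.0909, edgeR's quasi-likelihood test). In enterocyte-like cells it had 73.1 and 73.2 in 2D libraries against 41.5 and 51.1 in 0D libraries (log2 0.66 ± 0.11, adjusted p = 0.195, edgeR). Hyou1 did so in 5 classes and 15 of 21 clusters. Pdia4, a disulfide isomerase, did so in 5 classes, with log2 changes of 0.06 to 0.38. Pdia3, Pdia6 and Canx stayed near 0 or went both ways: Pdia3 lay between -0.17 and 0.17 over the classes and had no class with separate libraries. Pdia6 had 617 and 1053 TMM-scaled CPM in 2D libraries against 1083 and 1194 TMM-scaled CPM in 0D libraries in goblet-like cells, where both 2D libraries lay below (log2 -0.45). The goblet-like chaperone median turned with the scaling, at -0.06 with TMM and 0.07 without it. Both Pdia6 and Canx hold an ERSE match in their promoters, as do Hspa5, Creld2 and Dnajc3.

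Of the ERAD genes, Herpud1 rose in stem-like cells, with 81.1 and 81.7 TMM-scaled CPM in 2D-1 and 2D-2, against 54.5 and 55.1 in 0D-1 and 0D-2 (log2 0.57 ± 0.09, adjusted p = 0.0287, edgeR's quasi-likelihood test). The 2 libraries of each group nearly coincided. The log2 change was 0.56 to 0.62 under 14 alternatives, while the call was lost without 0D-1 (adjusted p = 0.501), without 0D-2 (adjusted p = 0.359), with DESeq2 (0.0624), at the coarser clustering (0.0535) and with the dividing Olfm4 cluster added (0.0526). Stem-like cells numbered 304 and 341 in 2D-1 and 2D-2, against 886 and 633 in 0D-1 and 0D-2, so the 2D values rest on fewer cells. Herpud1 per 1000 goblet-marker UMIs was 80.97 and 50.7 in 2D-1 and 2D-2, against 52.9 and 47.7 in 0D-1 and 0D-2 in stem-like cells. In goblet-like cells it was 1.79 and 2.39 in 2D-1 and 2D-2, against 1.601 and 1.56 in 0D-1 and 0D-2. All 12 Paneth markers had both 2D libraries above in stem-like cells, at a sum of 3918 and 4782 CPM in 2D-1 and 2D-2, against 2141 and 2773 in 0D-1 and 0D-2. Per 1000 Paneth-marker UMIs, stem-like Herpud1 was 21.2 and 17.2 in 2D-1 and 2D-2, against 24.8 and 19.7 in 0D-1 and 0D-2. The part of goblet and Paneth RNA in the Herpud1 call was not tested. Enterocyte-like cells had the largest Herpud1 change, with 64.9 and 76.4 TMM-scaled CPM in 2D libraries against 36.7 and 34.9 TMM-scaled CPM in 0D libraries (log2 0.97 ± 0.10, adjusted p = 0.0725, edgeR), which missed the threshold. There too all 12 Paneth markers had both 2D libraries above, at 4514 and 4582 CPM in 2D-1 and 2D-2, against 1534 and 1975 in 0D-1 and 0D-2. Goblet markers summed there to 6036 and 2811 CPM in 2D-1 and 2D-2, against 2493 and 1990 in 0D-1 and 0D-2. Their part in the enterocyte-like changes was not tested. Goblet-like cells had 186 and 355 in 2D libraries against 255 and 244 in 0D libraries, with 2D-1 below and 2D-2 above both 0D libraries.

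Syvn1 had 10.6 and 12.7 TMM-scaled CPM in 2D libraries against 7.29 and 8.29 TMM-scaled CPM in 0D libraries in stem-like cells. In transit-amplifying-like cells it had 24.8 and 27.8 in 2D libraries against 15.6 and 16.9 in 0D libraries, and in goblet-like cells 61.7 and 52.5 in 2D libraries against 36.4 and 33.8 in 0D libraries. Its log2 change lay between 0.56 and 0.91 over the classes, the highest in tuft-like cells, where 2D-1 (42.1) stood far above 2D-2 (18.3) and leaving out 2D-1 gave log2 0.25. The lowest adjusted p by edgeR's quasi-likelihood test was 0.0737, in enteroendocrine-like cells. Sel1l, the adaptor of the same ligase, had 81.9 and 88.8 TMM-scaled CPM in 2D libraries against 65.7 and 59.2 TMM-scaled CPM in 0D libraries in goblet-like cells and log2 changes of 0.17 to 0.45 over the classes. Within clusters, both 2D libraries lay above both 0D libraries in 19 of 20 clusters for Syvn1 and 19 of 21 for Sel1l. Edem1 did so in 6 classes. Derl1 had no class above and lay below in tuft-like cells (57.5 and 58.1 in 2D libraries against 67.1 and 74.95 in 0D libraries), and Derl3 was tested in 3 classes with no separation.

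Of the sensor genes, Ern2 rose in enteroendocrine-like cells, with 39.98 and 33.4 TMM-scaled CPM in 2D-1 and 2D-2, against 17.9 and 21.4 in 0D-1 and 0D-2 (log2 0.90 ± 0.16, adjusted p = 0.0299, edgeR's quasi-likelihood test). Both 2D libraries lay above both 0D libraries. Goblet markers also had a higher sum in these cells in 2D, at 15854 and 20404 CPM in 2D-1 and 2D-2, against 12815 and 12487 in 0D-1 and 0D-2. Ern2 per 1000 goblet-marker UMIs was 2.56 and 1.62 in 2D-1 and 2D-2, against 1.36 and 1.73 in 0D-1 and 0D-2 in enteroendocrine-like cells. The same ratio in goblet-like cells themselves was 2.92 and 1.38 in 2D-1 and 2D-2, against 1.23 and 1.2003 in 0D-1 and 0D-2. In both classes 2D-1 had the highest ratio, and the part of goblet RNA in the call was not tested. The call was lost with cells at most 10% mitochondrial (adjusted p = 0.0593), with DESeq2 (0.109) and without the 8% highest doublet scores (0.509).

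In goblet-like cells, where Ern2 is highest, it had 304 and 205 TMM-scaled CPM in 2D libraries against 196 and 188 TMM-scaled CPM in 0D libraries (log2 0.41), with 2D-1 far above the rest. The goblet-like cluster led by Ddx60, which is mostly 2D-1, had 372 and 325 CPM in 2D-1 and 2D-2, against 269 and 279 in 0D-1 and 0D-2. In enterocyte-like cells Ern2 had 20.1 and 4.69 TMM-scaled CPM in 2D libraries against 4.31 and 2.53 TMM-scaled CPM in 0D libraries (log2 1.98 ± 0.61, adjusted p = 0.3196, edgeR's quasi-likelihood test), and leaving out 2D-1 gave log2 0.46. Xbp1 lay above in both 2D libraries in 5 classes. It had 76.5 and 84.4 TMM-scaled CPM in 2D libraries against 58.8 and 55.01 TMM-scaled CPM in 0D libraries in stem-like cells (log2 0.49 ± 0.10, adjusted p = 0.0612, edgeR's quasi-likelihood test) and 181 and 206 in 2D libraries against 129 and 140.4 in 0D libraries in enteroendocrine-like cells (log2 0.52 ± 0.11, adjusted p = 0.0649, edgeR). In goblet-like cells it had 286 and 335 in 2D libraries against 327 and 332 in 0D libraries, with the groups overlapping. The counts do not separate spliced from unspliced Xbp1, so they bear on its level and not on IRE1 activity. Atf6 lay above in 6 classes, at log2 0.25 to 0.42, and in 16 of 20 clusters; the exception among classes was the enteroendocrine-like one, where the Chga and Tac1 cluster sets its level (239.9 and 203 in 2D libraries against 203 and 266 in 0D libraries). Ern1 had no class above, and lay below in Paneth-like cells (7.79 and 7.14 in 2D libraries against 8.96 and 9.93 in 0D libraries). Eif2ak3, the sensor PERK, lay above in 4 classes.

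Of the ATF4-type genes, Nupr1 rose in enteroendocrine-like cells, with 84.6 and 94.7 TMM-scaled CPM in 2D-1 and 2D-2, against 43.1 and 48.8 in 0D-1 and 0D-2 (log2 0.96 ± 0.12, adjusted p = 0.00164, edgeR's quasi-likelihood test). It also rose in tuft-like cells, with 113 and 109 in 2D-1 and 2D-2, against 62.2 and 46.7 in 0D-1 and 0D-2 (log2 1.03 ± 0.18, adjusted p = 0.0285, edgeR). In both classes the 2D libraries lay well above the 0D libraries. The enteroendocrine-like call held under all 14 alternatives (log2 0.75 to 1.14, adjusted p up to 0.0457). That in tuft-like cells was lost with cells at most 10% mitochondrial (adjusted p = 0.436), with DESeq2 (0.111), without 0D-2 (0.052) and without the 8% highest doublet scores (log2 0.32, adjusted p = 0.9004).

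Markers of the secretory classes in which Nupr1 is high moved with these calls. The 12 Paneth markers, each higher in both 2D libraries, summed in enteroendocrine-like cells to 14303 and 11017 CPM in 2D-1 and 2D-2, against 3496 and 5004 in 0D-1 and 0D-2. In tuft-like cells they summed to 25015 and 21535 CPM in 2D-1 and 2D-2, against 3110.0 and 7003 in 0D-1 and 0D-2. Nupr1 per 1000 goblet-marker UMIs was 5.41 and 4.59 in 2D-1 and 2D-2, against 3.29 and 3.95 in 0D-1 and 0D-2 in enteroendocrine-like cells. In tuft-like cells it was 5.58 and 3.59 in 2D-1 and 2D-2, against 4.42 and 2.18 in 0D-1 and 0D-2. In goblet-like cells it was 4.64 and 3.89 in 2D-1 and 2D-2, against 3.19 and 3.49 in 0D-1 and 0D-2. Per 1000 Paneth-marker UMIs, Nupr1 was 5.99 and 8.49 in 2D-1 and 2D-2, against 12.1 and 9.86 in 0D-1 and 0D-2 in enteroendocrine-like cells. In tuft-like cells that ratio was 4.57 and 5.005 in 2D-1 and 2D-2, against 19.7 and 6.59 in 0D-1 and 0D-2. Both 2D libraries were lower than both 0D libraries in the ratio to Paneth markers in these classes, and the part of goblet and Paneth RNA in the Nupr1 calls was not tested. In enterocyte-like cells, where 2D-1 is mostly the Ly6a and Isg15 cluster, Nupr1 had 29.2 and 11.5 TMM-scaled CPM in 2D libraries against 8.003 and 7.54 TMM-scaled CPM in 0D libraries (log2 1.47 ± 0.38, adjusted p = 0.2798, edgeR's quasi-likelihood test), and leaving out 2D-1 gave log2 0.57. In the secretory classes themselves Nupr1 had 482 and 578 TMM-scaled CPM in 2D libraries against 509 and 545 TMM-scaled CPM in 0D libraries in goblet-like cells, with the groups interleaved, and 407 and 373 in 2D libraries against 492 and 441 in 0D libraries in Paneth-like cells, with both 2D libraries below.

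Ddit3 had both 2D libraries above both 0D libraries in 5 classes, among them Paneth-like cells (16.3 and 27.8 TMM-scaled CPM in 2D libraries against 11.6 and 14.9 TMM-scaled CPM in 0D libraries, log2 0.74) and tuft-like cells (31.4 and 29.7 in 2D libraries against 19.6 and 16.97 in 0D libraries, log2 0.74). In stem-like and enterocyte-like cells its groups overlapped. Ppp1r15a, the phosphatase subunit GADD34 that restores translation, did so in the same 5 classes, with log2 0.20 to 0.61. Atf4 itself lay above in 6 classes, with 169 and 139 TMM-scaled CPM in 2D libraries against 118 and 111 TMM-scaled CPM in 0D libraries in tuft-like cells, its largest change (log2 0.42). Asns, asparagine synthetase, lay above in 4 classes, with 39.5 and 34.2 TMM-scaled CPM in 2D libraries against 22.6 and 25.5 TMM-scaled CPM in 0D libraries in enterocyte-like cells (log2 0.63 ± 0.12, adjusted p = 0.199, edgeR's quasi-likelihood test). Chac1 was above in Paneth-like cells (8.48 and 7.45 in 2D libraries against 5.71 and 5.29 in 0D libraries), and its large log2 values in enterocyte-like and transit-amplifying-like cells rest on 2D-1 (4.07 and 7.53, against 0.268 and 2.402 in 2D-2). Sesn3 lay above in stem-like cells, one of its own high classes, with 27.5 and 36.2 in 2D libraries against 23.1 and 21.5 in 0D libraries (log2 0.49 ± 0.15, adjusted p = 0.227, edgeR), and below in Paneth-like cells. Trib3, a pseudokinase induced by ATF4, was tested in 3 classes and lay below in goblet-like cells (2.404 and 2.79 in 2D libraries against 4.29 and 3.603 in 0D libraries) and above in enteroendocrine-like cells (2.88 and 2.85 in 2D libraries against 1.83 and 1.801 in 0D libraries).

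The 2 libraries of 2D did not move alike. Set against the 0D mean over all cells, the median chaperone lay at 0.02 in 2D-1 and 0.49 in 2D-2 on the log2 scale, the median ERAD gene at 0.11 in 2D-1 and 0.62 in 2D-2 and the median ATF4-type gene at 0.22 in 2D-1 and 0.80 in 2D-2. The same held in transit-amplifying-like cells, with ATF4-type medians of 0.28 in 2D-1 and 0.74 in 2D-2. In goblet-like cells 2D-1 lay below the 0D mean, with chaperones at -0.39 in 2D-1 and 0.18 in 2D-2 and ERAD genes at -0.35 in 2D-1 and 0.51 in 2D-2. In enterocyte-like cells 2D-1 was the higher in each of the 4 gene groups, with ATF4-type medians of 0.48 in 2D-1 and 0.11 in 2D-2. Which 2D library lay farther from 0D therefore differed between classes. Genes outside the module varied in the same libraries: over all cells the median immediate early gene, a class that also marks dissociation stress, lay at -0.08 in 2D-1 and 0.71 in 2D-2, and the median cytosolic heat shock gene at -0.11 in 2D-1 and 0.97 in 2D-2. In stem-like cells the immediate early genes lay at -1.03 in 2D-1 and -0.31 in 2D-2, while the ERAD genes lay at 0.19 in 2D-1 and 0.50 in 2D-2. The part of these responses in the changes of the 35 genes was not tested.

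**Figure D5:**
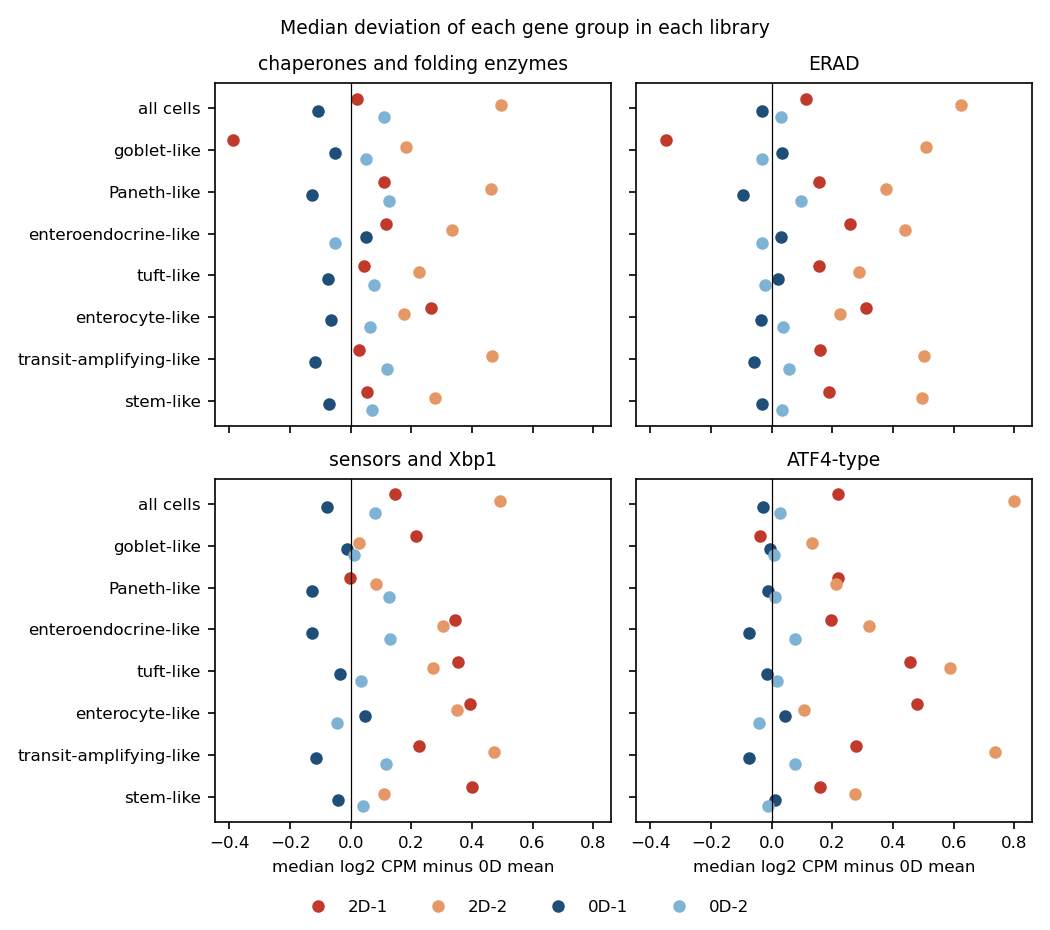
Median log2 CPM of each gene group (4 panels) in each library, relative to the 0D mean of each gene (x axis, log2), for all cells and each class (rows). 2D-2 lies to the right of 2D-1 in most rows of the chaperone and ERAD panels, and in goblet-like cells 2D-1 lies left of 0.

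Each 2D library was also fitted alone against 0D, where the lone library is assumed to vary like the 0D libraries, and members were counted in either direction. Both fits of a class use the same 0D libraries, so a call both ways is not a replication. The share of all genes called both ways was not counted. In enterocyte-like cells 9 members were called without 2D-1 (2.72% of all genes called) and 19 without 2D-2 (19.5%), and edgeR's quasi-likelihood test called 9 higher both ways: Asns, Creld2, Dnajc3, Herpud1, Hspa5, Hyou1, Manf, Syvn1 and Xbp1. In stem-like cells 8 were called without 2D-1 (3%) and 3 without 2D-2 (4.09%), with Creld2, Herpud1 and Xbp1 in both. In goblet-like cells 12 were called without 2D-1 (4.47%), all higher, and 19 without 2D-2 (43.7%), 6 higher and 13 lower. Hyou1, Sel1l and Syvn1 were called higher in goblet-like cells both ways, and Dnajb9, Dnajc3, Derl2 and Herpud1 were called in opposite directions. The counts for transit-amplifying-like cells were 17 (5.64%) and 3 (3.95%), with Ern2 and Syvn1 in both. In Paneth-like cells they were 5 (0.343%) and 0 (1.95%), in enteroendocrine-like cells 11 (2.02%) and 2 (1.63%) with Ern2 and Nupr1 in both, and in tuft-like cells 4 (1.58%) and 3 (2.16%) with Nupr1 in both.

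Whether the change differed between a secretory class and stem-like cells was tested in 1 model with the library as a block. For goblet-like minus stem-like cells 0 of 35 members passed edgeR's quasi-likelihood test (0% of 12746 genes), 5 had an unadjusted p under 0.05 (6.64%) and 11 lay above 0 (48.1%), with a median difference of -0.19. For Paneth-like minus stem-like cells 0 of 35 passed (0.098% of 12240 genes, 0.049% higher), 6 had an unadjusted p under 0.05 (6.56%) and 22 lay above 0 (50.4%), with a median of 0.06. The lowest p among members was that of Sesn3, with a difference of -0.88 ± 0.21 (SE, adjusted p = 0.146), followed by Nupr1 with -0.93 ± 0.26 (SE, adjusted p = 0.309). Xbp1 differed by -0.44 ± 0.15 (SE, adjusted p = 0.483) in that model and by -0.58 ± 0.21 (SE, adjusted p = 0.713) for goblet-like cells. These 4 differences lie on the side of a higher change in stem-like cells, while Ddit3 lay on the other side in the Paneth-like model, with 0.86 ± 0.33 (SE, adjusted p = 0.6102). None passed.

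Other genes of the same pathways, from lists that were also chosen with earlier results of these data known, were read over all cells, where 50.8% of all genes lay above 0 and edgeR called 0%. None of them was called, and the 2 of each list with the lowest p are named. Translocation, glycosylation and further folding genes had 39 of 45 above 0 (median 0.20), among them the channel subunit Sec61a1 (log2 0.52 ± 0.08, adjusted p = 0.151, edgeR's quasi-likelihood test) and the redox protein Txndc11 (log2 0.42 ± 0.09, adjusted p = 0.152). Further ERAD genes had 17 of 19 above 0 (median 0.17), among them Edem3 (log2 0.52 ± 0.11, adjusted p = 0.152, edgeR) and Nploc4 (log2 0.29 ± 0.10, adjusted p = 0.211). Further ATF4-type genes had 29 of 32 above 0 (median 0.25), among them Psat1 of serine synthesis (log2 0.58 ± 0.12, adjusted p = 0.152, edgeR) and the amino acid carrier Slc1a5 (log2 0.55 ± 0.11, adjusted p = 0.152). Further sensors and factors had 10 of 14 above 0 (median 0.11), among them Creb3l3, known from enterocytes and liver (log2 -1.17 ± 0.25, adjusted p = 0.153, edgeR), and Creb3l1 (log2 0.53 ± 0.12, adjusted p = 0.163). Enterocyte markers also had a lower sum over all cells in 2D, at 1880.2 and 1426 CPM in 2D-1 and 2D-2, against 2418 and 2431 in 0D-1 and 0D-2. In goblet-like cells the translocation and glycosylation list had a median of -0.18, with 2D-1 at -0.42 and 2D-2 at 0.04, the same order of libraries as its chaperones.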

How the data were processed

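The authors deposited raw UMI counts per gene and cell barcode, 1 matrix a library, with no normalization recorded. Counting used Cell Ranger 2.1.1 with mm10 per the submitters' processing notes, while the file headers name cellranger 7.0.0, and intron counting and strand are not stated in those sources. Total counts in kept cells were 110587001 and 93090534 UMIs in 2D-1 and 2D-2, and 113758758 and 110817632 in 0D-1 and 0D-2. Kept cells had at least 500 genes and no more than 20% mitochondrial UMIs, and they were clustered with scanpy 1.11.5 (2000 variable genes, 30 components, 15 neighbours, Leiden resolution 1). Clusters were named from marker lists, and a cluster with under 3 detected markers or leading genes of another class stayed unnamed. For each class the UMIs of a library were added up and tested with edgeR 4.0.16 (R 4.3.3) by its quasi-likelihood test, with filterByExpr, TMM and Benjamini-Hochberg adjustment over all genes at 0.05, 2 libraries a group. Class levels are plain CPM, and 2D against 0D values are TMM-scaled CPM. DESeq2 1.42.0, other filters, a coarser clustering, a replicate block and leaving out each library were alternatives, and those that leave out single clusters, add the dividing Olfm4 cluster or drop TMM were chosen after seeing the data. The count test was tested on simulated data. The members and lists were chosen with earlier results of these data known. Genes described in full are those past the threshold in any fit and, in each of the 4 groups, the 2 with the lowest p and the 2 with the highest mean over all cells, and other members are named where their values are given.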

Additional observations from a re-analysis of the deposited data

Results flagged for a closer look

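The members below had both 2D libraries above both 0D libraries in some classes and below them in others. Values are log2 changes by edgeR, 2D over 0D, and the difference between the classes was not tested except where a difference is given. Ern2 lay higher in tuft-like (0.73), enteroendocrine-like (0.90), transit-amplifying-like (0.70), goblet-like (0.41) and enterocyte-like cells (1.98) and lower in stem-like cells (-0.42, but 0.14 at the coarser clustering). The goblet-like minus stem-like difference of Ern2 was 0.87 ± 0.37 (SE, adjusted p = 0.716) by edgeR's quasi-likelihood test. In stem-like cells Ern2 rests on few UMIs, so the lower value there and this difference do too. Nupr1 lay higher in tuft-like (1.03), enteroendocrine-like (0.96), enterocyte-like (1.47), stem-like (0.67) and transit-amplifying-like cells (0.68) and lower in Paneth-like cells (-0.26), with the difference from stem-like cells given above. Sesn3 lay higher in stem-like (0.49) and lower in Paneth-like cells (-0.38), also tested above. Canx lay higher in transit-amplifying-like (0.10) and enterocyte-like cells (0.12) and lower in stem-like (-0.052) and goblet-like cells (-0.22). P4hb, a disulfide isomerase, lay higher in enteroendocrine-like (0.31) and tuft-like cells (0.15) and lower in stem-like (-0.23) and enterocyte-like cells (-0.093). Calr lay higher in enteroendocrine-like (0.17) and lower in stem-like cells (-0.17). Trib3 lay higher in enteroendocrine-like (0.65) and lower in goblet-like cells (-0.60).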

How the results depend on the processing

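Counts of members called moved with the tool and the filter, against 1 in tuft-like, 2 in enteroendocrine-like and 1 in stem-like cells and 0 elsewhere. Most of these counts stand without the share of all genes called, so they describe the settings and are no result about the members. DESeq2 called 5 over all cells (3.19% of all genes), 0 in tuft-like (0.138%), 4 in enterocyte-like (0.558%), 1 in transit-amplifying-like (0.362%) and 0 in stem-like cells (0.291%). With no low-count filter edgeR called 2 in tuft-like, 10 in enteroendocrine-like, 4 in Paneth-like, 1 in both goblet-like and enterocyte-like, 10 in transit-amplifying-like and 5 in stem-like cells. Nothing in the labels ties libraries of 1 number to each other. The correlation of their deviations was 0.056 over all cells and ran from -0.077 in stem-like to 0.101 in transit-amplifying-like and 0.186 in Paneth-like cells, and the replicate block gave 2 in tuft-like, 10 in enteroendocrine-like, 3 in Paneth-like, 4 in transit-amplifying-like and 4 in stem-like cells. At most 10% mitochondrial UMIs gave 0 in tuft-like and 1 in enteroendocrine-like cells, as did leaving out the 8% highest doublet scores. The coarser clustering gave 0 in stem-like and 2 in transit-amplifying-like cells. Adding the dividing Olfm4 cluster gave 0 in stem-like cells, leaving out the Cdc20 and Hist1h2ab clusters 1 in transit-amplifying-like cells, and leaving out the Ly6a and Isg15 cluster or TMM scaling 1 in enterocyte-like cells. The tuft-like member median was 0.14 at 10% mitochondrial UMIs and 0.094 without the highest doublet scores, where the tuft-like chaperone median was -0.038 and Ern2 in Paneth-like cells -0.0041. At equal cell numbers per class Calr was -0.012, Derl1 -0.10 and Nupr1 -0.12 over all cells. Derl1 was also -0.0021 with DESeq2, -0.11 without TMM, -0.0054 with no filter and -0.0028 without the highest doublet scores. Nupr1 in goblet-like cells was -0.046 in cells of at least 5000 UMIs, -0.053 at 10% mitochondrial UMIs, -0.072 without the Atf3 and Fos cluster and -0.23 without the Ddx60 and Irf7 cluster, where the ATF4-type median was -0.069. Ern2 in stem-like cells was 0.14 at the coarser clustering and 0.12 with the Olfm4 cluster. The coarser clustering also put the summed CPM at 5849 for chaperones and 233 for sensor genes in transit-amplifying-like cells, and 2148 and 116 in Paneth-like cells. The cause was not tested for any of these.

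Counts of calls below stand without the share of all genes called and are no result about the members. Leaving out each library in turn gave these lowest and highest values. In the all cells comparison it was 0 to 26 for members called higher, 0 to 1 for members called lower, -0.11 to 0.11 for Derl1 log2 change. In the stem-like class it was 0 to 8 for members called higher, 0.092 to 0.33 for the median of all members. In the transit-amplifying-like class it was 0 to 17 for members called higher. In the enterocyte-like class it was 0 to 19 for members called higher, 0.22 to 0.34 for the median of all members. In the Paneth-like class it was 0 to 5 for members called higher, -0.084 to 0.17 for Ern2 log2 change. In the goblet-like class it was 0 to 12 for members called higher, 0 to 13 for members called lower, -0.15 to 0.17 for the median of all members, -0.36 to 0.51 for the median of ERAD genes, -0.050 to 0.14 for the median of ATF4-type genes, -0.44 to 0.51 for Herpud1 log2 change, -0.14 to 0.13 for Nupr1 log2 change. In the enteroendocrine-like class it was 2 to 11 for members called higher, 0.17 to 0.35 for the median of all members. In the tuft-like class it was 0 to 4 for members called higher. In the goblet-like minus stem-like comparison it was 0 to 2 for members called higher, 0 to 14 for members called lower, -0.30 to 0.078 for the median of sensor genes. In the Paneth-like minus stem-like comparison it was 0 to 1 for members called higher. Low members such as Trib3, Derl3 and Chac1, and Ern2 in stem-like cells, rest on few UMIs per class. A difference in them was not detectable at this depth where the libraries overlap.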
